A study of Mus musculus with 2 samples.

Results

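The actin, myosin and sarcomere genes were followed in sorted Flk1+Tie2+ cells made from mouse embryonic stem cells with and without a pulse of the transcription factor Mesp1. They were chosen by symbol: the actins, myosin heavy and light chains and their kinases, troponins, tropomyosins, alpha-actinins, calponins, transgelins, PDZ-LIM and CRP proteins, pointed-end proteins, and the named Z-disc, thick filament and M-band genes. The choice took 167 of 45037 probe sets and 84 of 18193 named genes. Of the 84 genes, 14 were classed as smooth muscle, 48 as striated muscle and 22 as non-muscle, from general knowledge of where the proteins work. A further 4 probe sets that the array assigns to several genes, for Myl6 with its copies and for Myh7 with Myh6, were set aside.

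Both samples were Flk1+Tie2+ cells sorted on day 5 from embryoid bodies of A2lox.Mesp1 embryonic stem cells, a 129/Ola line in which doxycycline (dox) switches on Mesp1. The dox sample came from cultures given 250 ng/mL of dox starting on day 2 and ending on day 4, although another label of that sample names only day 2, and the no dox sample from untreated cultures. Each condition had 1 Affymetrix array, so the differences below compare 2 samples, have no replicate error and carry no p-value. No sample analysed here received dox without the transgene, so dox itself and Mesp1 cannot be told apart. The sorted cells are a population, and more cells of a contractile type or more contractile RNA per cell cannot be told apart either.

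Muscle contracts when myosin motors in thick filaments pull on thin filaments of actin. In striated muscle the thin filament carries tropomyosin and the calcium-sensing troponin complex, and its ends are held by the Z-disc and capped at the pointed end. Smooth muscle lacks troponin and is switched on instead by phosphorylation of the regulatory myosin light chain. All cells use cytoplasmic actins and non-muscle myosin II for shape, adhesion and movement. Many contractile genes of each kind are controlled by serum response factor (Srf), which binds the CArG box, with myocardin-family coactivators.

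The table holds linear signal intensities in arbitrary units, with a floor of exactly 1. The median signal was 127 with dox and 112 without dox. Differences are dox minus no dox on the scale log2(signal + 16), which understates the difference of dim genes, and folds are taken from them. Each gene is represented by its brightest probe set, and a gene past the signal filter had its brighter signal at or above the median of that array. Mesp1 had a signal of 10977 with dox and 2433 without dox. Kdr, which encodes Flk1, had 10733 and Tek, which encodes Tie2, had 9277 with dox, against 10139.7 and 8799 without dox. All 9 listed endothelial genes passed the filter in these sorted cells, and 8 of them lay within 2-fold. The other, Eng, a TGF-beta co-receptor, had 3922 with dox and 1626 without dox, 2.40-fold higher. Probe sets of the same gene scattered around their gene's mean with a pooled SD of 0.38 log2 units over 5155 genes. This is disagreement between probe sets on the same 2 arrays and does not measure error between cultures or arrays.

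Contractile genes were higher with dox in a larger share than genes at large, in all 3 classes, and the 12 that were 4-fold or more higher belonged to smooth or striated muscle. Of the 84 genes, 53 passed the filter, and of these 21 were 2-fold or more higher with dox (39.6%), where 5.71% of all 11760 genes past the filter were. A further 2, Mylk and Smtn, were 2-fold or more lower (3.77%, against 2.07% of all genes), and 30 lay within 2-fold. At 4-fold or more 12 members were higher, where 2.02% of all genes were, and 1, Mylk, was lower, where 25 of all 11760 genes were. The filter favours such genes, because 13 of the 53 owed their place to the dox array alone and 12 of those 13 were among the higher ones. Of the 12 at 4-fold or more higher, only Acta2, Tnnt2 and Tnni1 had both signals at or above their array medians. Among non-muscle members past the filter, 18 of 20 had both signals there, so the contrast between classes at 4-fold depends on the filter. Over all 84 genes without a filter, 23 were 2-fold or more higher (27.4%, against 4.77% of all genes) and 3 were lower (2.04% of all genes were). With both signals at or above their array medians, 9 of 38 were higher (against 3.82%) and 2 lower (against 1.54%).

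**Figure D1:**
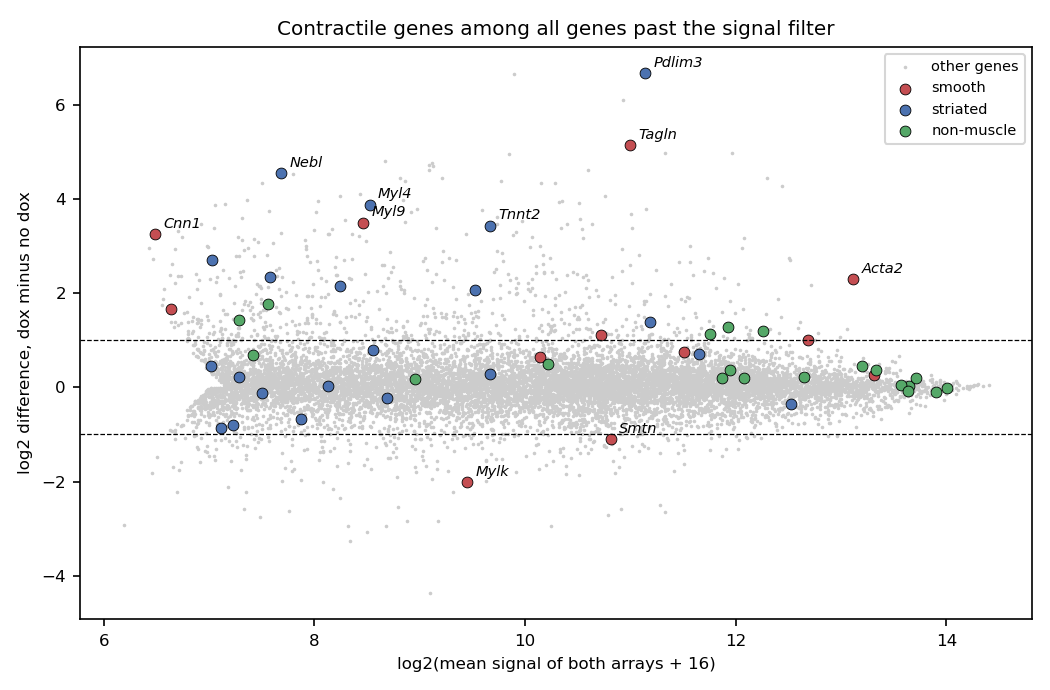
The log2 difference (dox minus no dox) of each gene past the signal filter is plotted against log2(mean signal of both arrays + 16), with the 53 contractile genes coloured by class and 2-fold marked by dashed lines. Pdlim3 and Tagln stand at the top, and Mylk and Smtn are the only contractile genes below the lower dashed line.

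The 3 classes are described here by their counts and medians. Of all genes past the filter, 5.71% were 2-fold or more higher and 2.07% lower. Among 12 smooth muscle members past the filter, 7 exceeded 2-fold upwards, 2 downwards and 3 neither, with a median log2 difference of 1.06. The 14 smooth muscle members, filter or not, gave the same median. Among 21 striated members past the filter, 9 were higher and 12 lay within 2-fold, with a median of 0.70. Of these 21, 7 passed through the dox array alone. Over all 48 striated members, 27 of which did not pass the filter, the median was 0.07. Among 20 non-muscle members past the filter, 5 were higher and 15 lay within 2-fold, with a median of 0.29, or 0.23 over all 22. Without a filter 10 of 48 striated members (20.8%) and 5 of 22 non-muscle members (22.7%) were 2-fold or more higher, so these classes have no fixed order. Of the higher members, 4 smooth, 6 striated and 2 non-muscle ones owed their place to the dox array alone. With both signals at or above their array medians, 3 of 8 smooth, 3 of 12 striated and 3 of 18 non-muscle members were higher. Of all such genes 3.82% were higher. In that setting 2 smooth members were lower, where 1.54% of all genes were. The class medians were then 0.70 for smooth, 0.26 for striated and 0.21 for non-muscle members. The median over all genes past the filter was 0.05. When each array was scaled to the same median, the non-muscle median came to 0.10 and the median of all genes moved by -0.18. The signs of Cnn3, Myl3, Myl6 and Tpm3 turned at that scaling, so differences of this size depend on it.

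**Figure D2:**
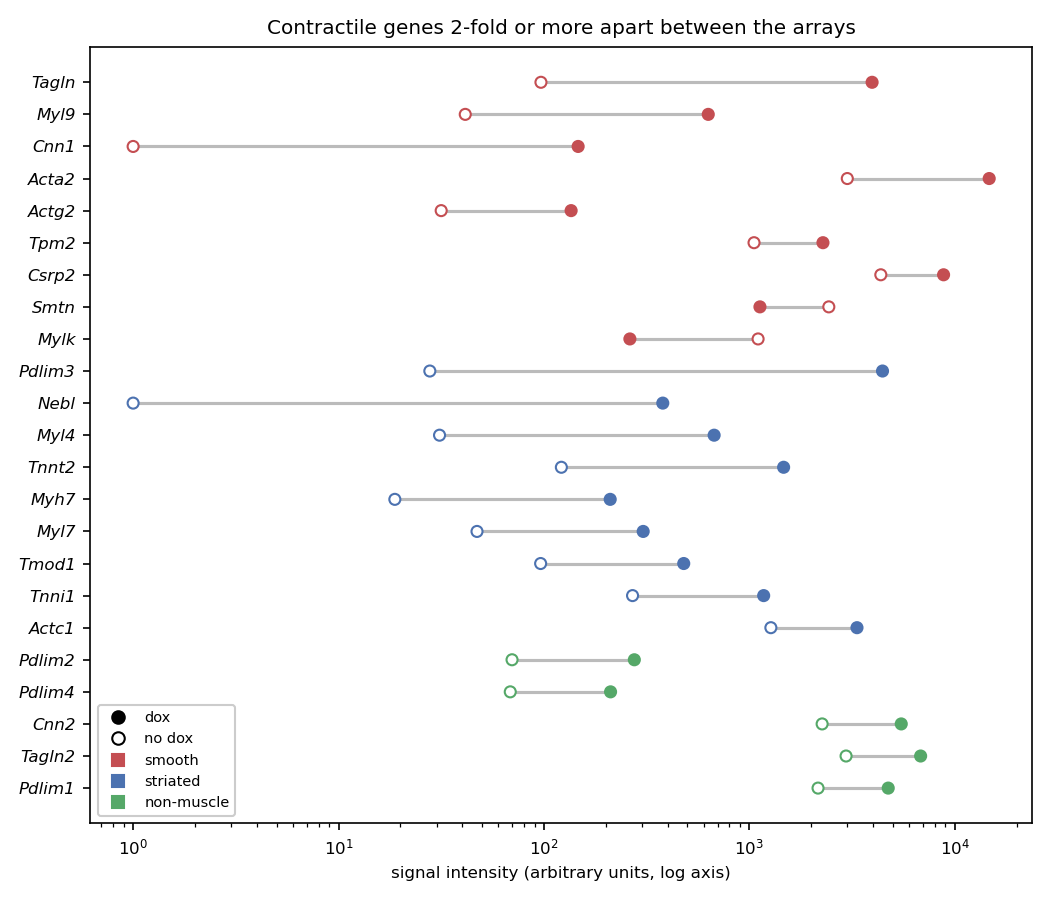
Signals (arbitrary units, log axis) of the 23 contractile genes that differed 2-fold or more, with filled circles for dox and open circles for no dox, coloured and grouped by class. Cnn1 and Nebl lie at the floor of 1 without dox, and Smtn and Mylk alone have the filled circle on the left.

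CArG boxes stood in a larger share of the promoters of these genes than of all promoters. RefSeq promoter sequences of assembly GRCm38.p6 were found for 68 of the 84 genes, 86 start sites in all, and the 250 bases before each start site were searched. Shown here are 3 actin or myosin genes and 2 genes of actin-associated proteins whose start site is also the outer end of the annotated gene. They include Pdlim3, 102-fold higher at the pseudocount of 16, and a gene that was even, Actg1. Capitals mark CArG boxes, and also near matches in which 1 of the 6 core letters is a G or C.
Pdlim3, chr8:45885237-45885486, plus strand: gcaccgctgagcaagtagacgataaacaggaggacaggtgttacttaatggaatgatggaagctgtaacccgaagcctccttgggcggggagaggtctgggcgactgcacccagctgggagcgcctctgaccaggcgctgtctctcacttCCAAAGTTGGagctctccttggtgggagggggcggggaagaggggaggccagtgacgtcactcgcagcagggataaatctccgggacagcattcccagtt
Actc1, chr2:114052876-114053125, minus strand: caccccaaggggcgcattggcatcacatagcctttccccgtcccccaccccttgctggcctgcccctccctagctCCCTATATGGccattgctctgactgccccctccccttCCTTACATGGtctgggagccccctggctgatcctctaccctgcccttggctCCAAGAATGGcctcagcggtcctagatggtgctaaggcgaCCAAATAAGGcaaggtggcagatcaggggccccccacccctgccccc
Myl7, chr11:5898783-5899032, minus strand: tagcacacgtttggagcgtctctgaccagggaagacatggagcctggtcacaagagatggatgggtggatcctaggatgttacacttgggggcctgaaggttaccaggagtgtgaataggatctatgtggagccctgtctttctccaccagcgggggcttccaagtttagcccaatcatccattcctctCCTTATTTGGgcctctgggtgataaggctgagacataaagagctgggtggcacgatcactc
Cnn2, chr10:79988350-79988599, plus strand: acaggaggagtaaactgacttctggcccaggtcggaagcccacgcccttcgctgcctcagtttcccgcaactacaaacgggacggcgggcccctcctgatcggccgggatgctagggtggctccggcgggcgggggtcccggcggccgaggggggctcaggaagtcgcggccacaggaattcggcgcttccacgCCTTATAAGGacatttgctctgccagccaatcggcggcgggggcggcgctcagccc
Actg1, chr11:120348496-120348745, minus strand: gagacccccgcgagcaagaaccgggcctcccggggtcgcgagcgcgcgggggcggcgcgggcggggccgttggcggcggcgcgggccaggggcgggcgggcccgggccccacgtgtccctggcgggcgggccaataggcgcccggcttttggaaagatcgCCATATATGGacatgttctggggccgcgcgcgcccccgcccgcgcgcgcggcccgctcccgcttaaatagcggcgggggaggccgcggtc

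A CArG box was present in 13 of the 86 member promoters (15.1%) and in 1.47% of all 32851 promoters of the table. Counted by gene, it was present in 12 of 68 members and in 439 of all 27025 genes. Near matches stood in 12 of the 86 (14.0%) and in 7.24% of all promoters. Cnn2 has CCTTATAAGG beginning 56 bases before its start site, and Myl7 has CCTTATTTGG beginning 61 bases before. Actc1 holds a full box, CCAAATAAGG, beginning 47 bases before the start and 3 near matches further out. Pdlim3 holds only a near match, CCAAAGTTGG, beginning 100 bases before the start. The Acta2 promoter has 2 near matches, CCCTATATGG at 84 bases and CCTTGTTTGG at 34 bases before its start site. Myl9 has a full box, CCTAATAAGG, at 161 bases. Boxes stood in members on either side of the 2-fold limit. A full box stood in 5 of 23 promoters of members higher with dox (21.7%) and in 7 of 32 promoters of members within 2-fold (21.9%). Some genes have several start sites, and the same box of Ldb3 was counted from both of its start sites. By gene, a full box stood in 5 of 17 higher members and in 6 of 25 members within 2-fold. The box of Actg1, CCATATATGG at 90 bases, belongs to a gene with a log2 difference of -0.01.

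Other muscle motifs were counted in the same windows, on both strands and without removing overlaps between motifs. The MCAT motif CATTCC, bound by Tead factors, stood in 27.9% of member promoters and 12.6% of all promoters. Both genes lower with dox and in the promoter table had it, as did 8 of the 23 promoters of higher members. The MEF2 site stood in 7 member promoters, all of them striated, and in 2.92% of all promoters. None of those 7 belonged to a member that was 2-fold or more higher, and 6 belonged to members too dim for the filter. The E-box CANNTG, the kind of site that bHLH factors such as Mesp1 bind, stood in 70.9% of member promoters and 66.2% of all promoters. A match in these letters is a description of the sequence and not a bound site.

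Among the actins, 3 of the 4 muscle isoforms were 2-fold or more higher and the cytoplasmic ones close to even. Beside the family counts here and below, 5.71% of all genes past the filter were 2-fold or more higher. Acta2, the smooth muscle alpha-actin, had a signal of 14719 with dox and 2999 without dox, 4.89-fold higher. By its ending (_s_at) that probe set may also read related transcripts, and 2 dimmer probe sets of Acta2 that did not pass the filter gave log2 differences of 1.09 and 0.88. Actc1, the cardiac alpha-actin, had 3343 with dox and 1273 without dox, 2.61-fold higher. Actg2, the smooth muscle gamma-actin of gut, had 136 with dox and 31.6 without dox, and reached the filter on the dox array alone. Acta1, the skeletal alpha-actin, differed by 0.23 (152 with dox, 127 without dox). The cytoplasmic actins Actb and Actg1 differed by -0.09 and -0.01, although a second probe set of Actb gave 0.35.

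Of the 4 tropomyosins, which lie along actin filaments, 1 was 2-fold or more higher and 3 lay within 2-fold. Tpm2 had a signal of 2283 with dox and 1054 without dox, 2.15-fold higher. Its other probe sets gave log2 differences of 1.12, 0.95 and 0.29, and it was no longer past 2-fold in 3 of 9 alternative settings, with averaged probe sets among them. Tpm1 had 3628 with dox and 2154 without dox, a log2 difference of 0.75. A second Tpm1 probe set of similar brightness gave 1.35 (3786 with dox, 1473 without dox). Tpm1 and Tpm2 serve striated as well as smooth muscle. Tpm3 and Tpm4, the mainly non-muscle forms, differed by 0.05 and -0.08. A dimmer Tpm3 probe set gave -1.09, with signals of 861 with dox and 1845 without dox.

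Among the troponins, Tnnt2 and Tnni1 were 2-fold or more higher. Tnnt2, the cardiac troponin T that ties the complex to tropomyosin, had a signal of 1469 with dox and 122 without dox, 10.8-fold higher, and a log2 difference of 2.89 came from its second probe set. Tnni1, the slow skeletal inhibitory subunit that the embryonic heart also uses, had 1175 with dox and 270.1 without dox, 4.16-fold higher. Tnnc1, the calcium-binding subunit of cardiac and slow muscle, had 879 with dox and 716 without dox, a log2 difference of 0.29. The remaining troponins were not higher to this extent. Tnni2 differed by -0.22 and Tnnt3 by -0.12, both fast skeletal forms. Tnnt1, the slow skeletal troponin T, had 82.3 with dox and 163 without dox, a log2 difference of -0.87. Tnni3, the adult cardiac inhibitory subunit, and Tnnc2 did not pass the filter, with signals of 22.8 and 1.67 with dox and 58.8 and 1 without dox.

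The myosin light chains held some of the largest differences, and the heavy chains few. Myl4, the essential light chain of atrium and embryonic muscle, had a signal of 674 with dox and 31.0 without dox, 14.7-fold higher. A dimmer probe set of Myl4 below the filter gave a log2 difference of only 0.33. Myl9, the regulatory light chain of smooth muscle, had 631 with dox and 41.4 without dox, 11.3-fold higher. Myl7, the atrial regulatory light chain, had 304 with dox and 47.2 without dox, 5.06-fold higher. All 3 were under the array median without dox. Myl3, a ventricular and slow muscle essential chain, differed by 0.04, and its ventricular partner Myl2 was under the filter at 59.8 with dox and 60.9 without dox. The non-muscle chains Myl12a, Myl12b and Myl6 differed by 0.20, 0.37 and 0.17.

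Among 12 myosin heavy chains only 3 passed the filter. The non-muscle myosin II genes Myh9 and Myh10 differed by 0.21 and 0.36. Myh7, the heavy chain of slow and cardiac muscle, had a signal of 210.2 with dox and 18.8 without dox, 6.50-fold higher by its own probe set. The probe sets that Myh7 shares with Myh6 did not show this, with 87.5 and 1 with dox, against 72.4 and 25.95 without dox. Myh11, the heavy chain that marks mature smooth muscle, was near the floor at 13.5 with dox and 1.67 without dox. Myh6, the atrial heavy chain, had 65.6 with dox and 33.7 without dox and did not pass. The skeletal genes Myh1, Myh2, Myh3, Myh4 and Myh8 had signals from 1 to 28.45 with dox. Myh7b was at the floor on both arrays, and Myh14, another non-muscle heavy chain, lay just under the filter at 123 with dox and 102 without dox.

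The calponin and transgelin genes, whose products bind actin filaments, included the smooth muscle genes Tagln and Cnn1. Tagln (transgelin, SM22-alpha) had a signal of 3960.5 with dox and 96.7 without dox, 35.3-fold higher. Cnn1, the smooth muscle calponin, had 147 with dox and lay at the floor of 1 without dox. Its log2 difference of 3.26 rests on the pseudocount and was 6.21 with a pseudocount of 1 and 1.70 with one of 64. The broadly expressed relatives were higher as well. Tagln2 had 6824 with dox and 2958 without dox, 2.30-fold higher, and its second probe set past the filter gave 1.35 on the log2 scale. Cnn2 had 5491 with dox and 2262 without dox, 2.42-fold higher. Cnn3 was even in all 6 of its probe sets, from -0.06 to 0.16. Cald1, the actin-binding caldesmon, differed by 0.26 by its brightest probe set and by up to 0.90 by another.

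Mylk and Smtn went against the rest of the smooth muscle group. Mylk, the kinase that phosphorylates the regulatory light chain, had a signal of 262 with dox and 1103 without dox, 4.02-fold lower. Its probe sets disagreed, with a second at 233 with dox and 298 without dox and the last at 136 with dox and 75.2 without dox, log2 differences of -0.33 and 0.74. Averaged over the 3 probe sets the difference was -0.54, within 2-fold. Smtn (smoothelin, a protein of contractile smooth muscle filaments) had 1126 with dox and 2438 without dox in its only probe set, 2.15-fold lower. The striated muscle kinases Mylk2, Mylk3 and Mylk4 did not pass the filter, with signals from 18.6 to 46.1 with dox and from 13.4 to 65.1 without dox.

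The PDZ-LIM genes, adaptors that dock on alpha-actinin and Z-discs, were all higher by some amount, Pdlim1 to Pdlim4 by 2-fold or more. Pdlim3 had a signal of 4451 with dox and 27.8 without dox, 102-fold higher. This was the largest positive log2 difference of any gene past the filter at this setting, and it came from a single probe set. The log2 difference of 6.67 was 7.27 with a pseudocount of 1, where Nebl (7.57) exceeded it, and 5.62 with a pseudocount of 64. Pdlim2 had 276 with dox and 70.0 without dox, 3.39-fold higher, and Pdlim4 had 211 with dox and 68.6 without dox, 2.68-fold higher. Pdlim1 had 4745 with dox and 2161 without dox, 2.19-fold higher, and its second probe set gave 1.71 on the log2 scale. Pdlim7 differed by 0.50 and Pdlim5 by 0.70. The other probe sets of Pdlim5 ran from -0.08 to 0.65. Ldb3, the Z-disc protein of the same family, differed by 0.46 by its brightest probe set (134 with dox, 93.0 without dox) and by 2.79 by another (187 with dox, 13.4 without dox).

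The CRP genes, which encode small LIM proteins, differed less. Csrp2, the form of smooth muscle, had a signal of 8825 with dox and 4367 without dox, 2.02-fold higher and only just past the threshold. Csrp1 differed by 0.65, and the striated form Csrp3 did not pass, with 100.4 with dox and 107 without dox. Among members past the filter, those just short of 2-fold higher were Ttn at 0.78, Tpm1 at 0.75 and Pdlim5 at 0.70, and those just short of 2-fold lower were Tnnt1 at -0.87 and Myom1 at -0.80. The alpha-actinins, to which the LIM adaptors bind, were close to even in their non-muscle forms, with 0.44 for Actn1 and 0.20 for Actn4. A second Actn1 probe set gave -0.60. The striated forms Actn2 and Actn3 did not pass the filter, at 47.0 and 97.7 with dox and 38.5 and 75.5 without dox.

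Of the genes for proteins that cap or lengthen the pointed end of actin filaments, 4 passed the filter and 1 was 2-fold or more higher. Tmod1, the tropomodulin of striated muscle and red cells, had a signal of 479 with dox and 96.4 without dox, 4.41-fold higher. Lmod1, the leiomodin of smooth muscle, had 106 with dox and was at the floor of 1 without dox, but did not reach the filter. Tmod3, the widely expressed tropomodulin, differed by 0.20 by its brightest probe set, while others gave 1.47, 1.03 and 0.71. Tmod2, the neuronal form, differed by 0.68. Lmod3, a leiomodin of striated muscle, was in the other direction with 164 with dox and 272 without dox, a log2 difference of -0.68. Lmod2 and Tmod4 were under the filter, at 3.30 and 71.0 with dox and 1.69 and 84.8 without dox.

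**Figure D3:**
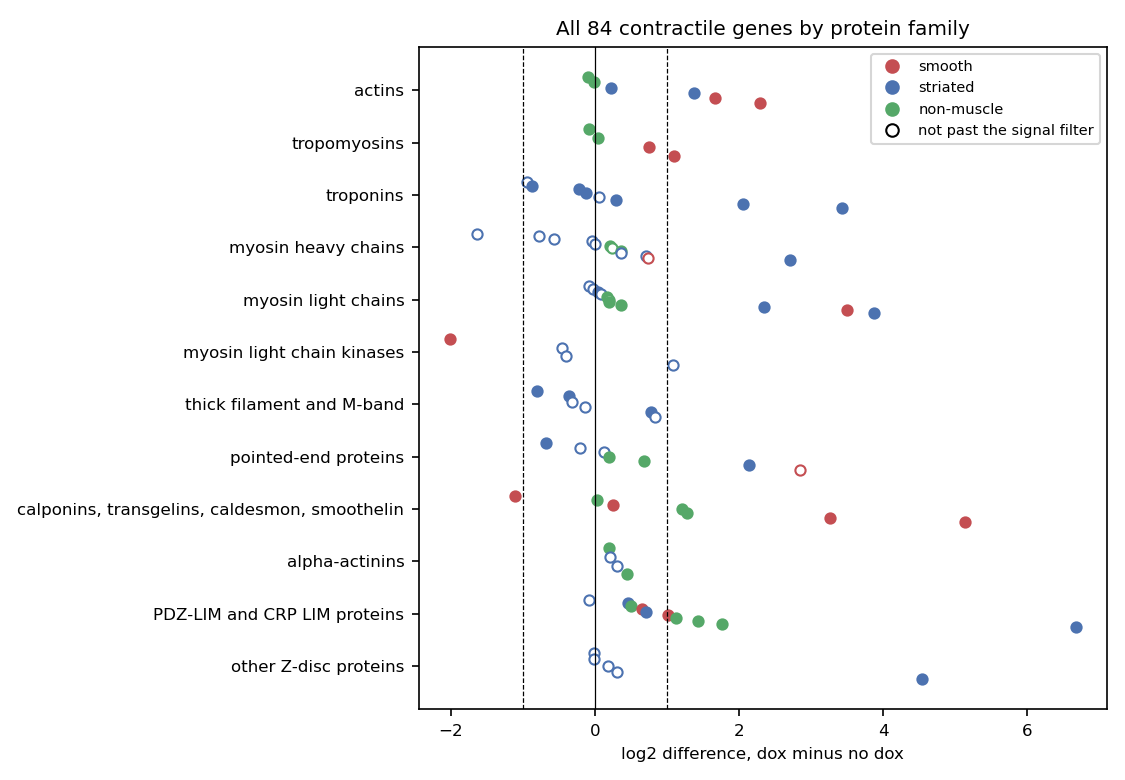
Log2 differences (dox minus no dox) of the 84 contractile genes by protein family, coloured by class, with open circles for genes not past the signal filter and dashed lines at 2-fold. Acta2, Actg2, Actc1, 3 light chains and 5 LIM protein genes lie right of the upper dashed line, while most open circles, chiefly striated genes, lie between the dashed lines.

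Genes of the sarcomere's backbone were mostly dim or even. Nebl (nebulette, a Z-disc protein of the heart) had a signal of 379 with dox and lay at the floor of 1 without dox, a log2 difference of 4.54. Its second probe set past the filter had 249 with dox and 70.4 without dox, a difference of 1.62. Ttn (titin, the spring that spans the half-sarcomere) had 460 with dox and 260.3 without dox, a difference of 0.78, and its other probe sets past the filter gave 0.74 and -0.10. Myom1, an M-band protein, had 93.5 with dox and 175 without dox, a difference of -0.80. Mybpc1, the slow skeletal myosin-binding protein C, had 5150.3 with dox and 6589 without dox by its brightest probe set, a difference of -0.35. The other Mybpc1 probe set past the filter gave 1.47 (133 with dox, 37.6 without dox), and these probe sets disagree in direction. The remaining genes did not pass the filter: Myom2, Mybpc2, Mybpc3, Tcap, Myoz1, Myoz2 and Myoz3. Other members under it were Myl1, Myl10 and Myl6b.

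The 31 members under the filter had signals from 1 to 123 with dox and from 1 to 109 without dox, and without detection calls none can be called absent. Of these 31, Lmod1 and Mylk3 were 2-fold or more higher and Myh4 2-fold or more lower. Among all 6433 genes under the filter, 196 were higher and 129 lower by this size. The 27 striated members among them include genes of adult cardiac and skeletal muscle such as Myl2, Tnni3, Myh6, Tcap and the skeletal heavy chains. The striated members past 2-fold on the dox side were Pdlim3, Nebl, Myl4, Tnnt2, Myh7, Myl7, Tmod1, Tnni1 and Actc1.

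Probe sets of the same contractile gene did not always agree. Of 99 member probe sets past the filter, 32 were 2-fold or more higher (5.61% of all named probe sets past the filter were) and 3 were lower (2.13% were). In 22 genes with several probe sets past the filter, all of them had the same sign in 12 genes and mixed signs in 10. Their pooled SD was 0.63 log2 units, against 0.38 over all genes. The widest were Ldb3, Nebl, Mylk, Mybpc1, Tpm3 and Tmod3, for which the brightest probe set alone does not give the difference of the gene.

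**Figure D4:**
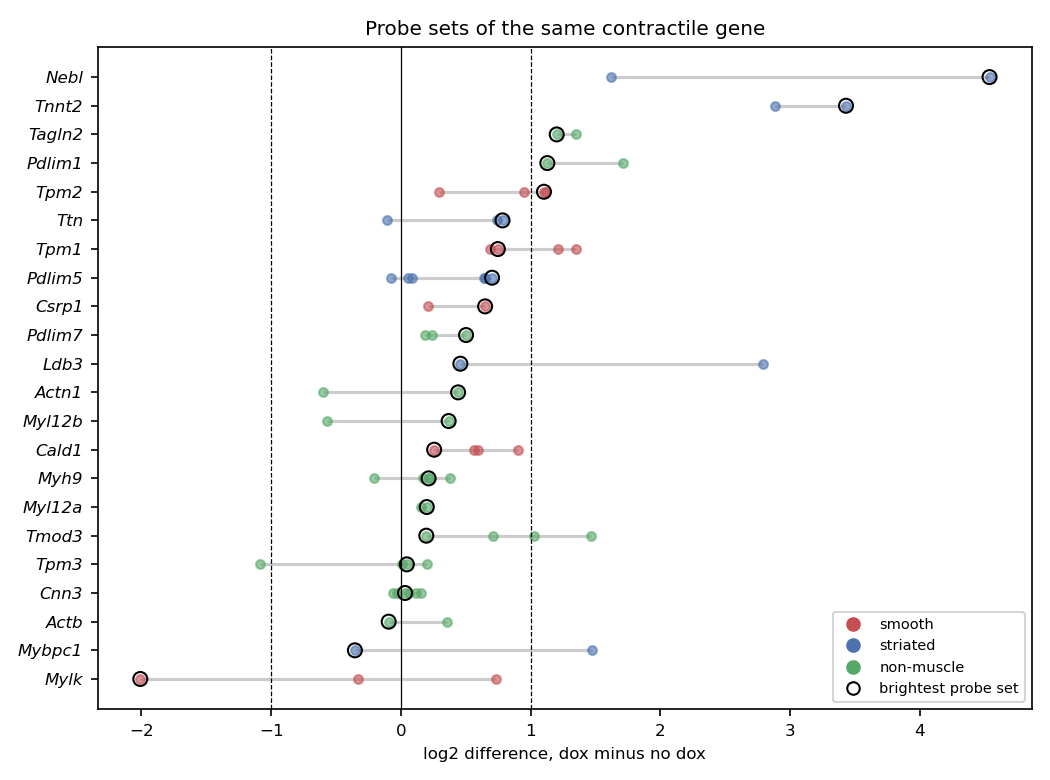
Log2 differences (dox minus no dox) of each probe set past the signal filter, for the 22 contractile genes with several, coloured by class, with a ring on the brightest probe set and a grey line over the range. Tnnt2, Nebl, Tagln2 and Pdlim1 lie right of the upper dashed line with every probe set, while the probe sets of Mylk and Mybpc1 fall on both sides of 0.

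Regulators of contraction and of contractile genes were examined as a separate list of 65 entries, 61 of them with a named probe set. Of 53 past the filter, 7 were 2-fold or more higher (13.2%, against 5.71% of all genes), none was lower and the median log2 difference was 0.18. Myocd, the Srf coactivator of smooth and cardiac muscle, had a signal of 251 with dox and 1.94 without dox. Srf itself had 3126 with dox and 2968 without dox. The coactivator genes Mrtfa and Mrtfb differed by -0.21 and 0.77, and the MEF2 factor genes Mef2a, Mef2c and Mef2d by 0.61, -0.48 and 0.17. Nexn, an actin-binding protein of the Z-disc, had 1486 with dox and 185 without dox, 7.47-fold higher. Ankrd1, a cardiac ankyrin-repeat protein that binds titin, had 251 with dox and 22.9 without dox, and Unc45b, the chaperone that folds muscle myosin, had 977 with dox and 189 without dox. Rnd3 was 5.32-fold higher, Ppp1r14a, an inhibitor of myosin phosphatase, 2.57-fold, and Pfn2, a profilin, 2.17-fold.

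Most of the smooth muscle and mesenchyme markers outside the contractile genes that passed the filter were 2-fold or more higher in the same sample. Of 12 past the filter, 8 were 2-fold or more higher (5.71% of all genes were), and the summed signal of the 15 listed was 29818 with dox and 5419 without dox. The higher ones included Col3a1 (10557 with dox, 530 without dox), Postn (4206 with dox, 289 without dox) and Pdgfra (3793 with dox, 526 without dox). Notch3, Itga8, Col1a2 and Dcn lay within 2-fold, with log2 differences of 0.45, 0.67, 0.50 and 0.11. Other probe sets of Col1a2 and Dcn gave 1.06 and 2.20. Des, Tbx18 and Cspg4 did not pass the filter. Further cardiomyocyte markers differed less, since of 5 past the filter only Corin was 2-fold or more higher. The summed signal of 11 was 8800 with dox and 8038 without dox, most of it from Atp2a2 (7776 with dox, 7261 without dox). Nkx2-5, a cardiac transcription factor, had 266 with dox and 136 without dox, a log2 difference of 0.89. Ckm went the other way, with 68.7 with dox and 149 without dox, a log2 difference of -0.97, and Hspb7 differed by -0.20. Nppa was near the floor at 8.16 with dox and 8.22 without dox, and Ryr2, Pln, Casq2, Nppb and Smpx did not pass the filter either. Of 7 skeletal muscle markers only Pax3 passed, with a log2 difference of -0.08, and the summed signal was 416 with dox and 410 without dox. Of 5 blood markers past the filter 2 were 2-fold or more lower (2.07% of all genes were). These were the globin genes Hbb-bh1 (535 with dox, 3282 without dox) and Hba-x (62.0 with dox, 140 without dox). Itga2b, Spi1 and Klf1 lay within 2-fold. The summed signal of blood markers over 6 genes was 5846 with dox and 9453 without dox, most of the difference coming from Hbb-bh1. The part of other cell types in the contractile gene differences was not tested.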

How the data were processed

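Gene expression was measured on 1 Affymetrix 3' array for each of 2 samples (dox and no dox), from 100 ng of RNA each, per the labels' protocols. The deposited values are linear signal intensities, 1 per probe set. For the authors' background correction, summary and scaling of these intensities the method was not given in the sources used here, and no detection calls or control probe sets were used. Of 45037 probe sets, 34945 had 1 gene symbol in the platform annotation, 932 had several and 9160 had none listed. RefSeq changed no member's symbol.

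Signals were analysed as log2(signal + 16) with Python 3.11.15, pandas 2.3.3 and numpy 2.4.6. With 1 array per condition there is no test, and genes were described by a fixed size of 2-fold (a log2 difference of 1). The number of arrays limits the precision of every value. The gene summary was tested on simulated data, with changes put only into bright genes and less noise than the probe-set scatter here. That test does not cover changes in dim genes. The alternatives were other pseudocounts, filters, scalings, probe-set rules and a different class for Tpm1 and Tpm2. Every member past the filter was to be named, with the regulators at 2-fold or more. Other regulators and markers given with values were chosen after their values were seen. The members and lists were chosen with earlier results of these data known. Promoters came from RefSeq (GRCm38.p6), and the deposited signals name no genome build.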

Additional observations from a re-analysis of the deposited data

How the results depend on the processing

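Across 9 alternatives, no member at 2-fold or more turned its sign, but most of these settings could hardly turn a difference of that size. Filters leave a value unchanged, pseudocounts cannot turn a sign, and the scalings moved the median of all genes by only -0.07 and -0.18. Of the 23 members at 2-fold or more, 19 stayed past 2-fold wherever they had a value. Some lacked a value in several settings, such as Actg2, which had one in 6. Csrp2 (0.83) and Pdlim1 (0.95) fell short when each array was scaled to the same median. Tpm2 fell short there, with averaged probe sets and without probe sets that can read several transcripts or genes, and was 0.29 at its lowest. Mylk fell short with averaged probe sets (-0.54). The count of higher members was 9 with both signals above their array medians and 11 with the filter at the 75th percentile, where fewer genes were counted. It was 14 without the multi-transcript probe sets and 18 with each array scaled to the same median. Higher smooth members were 3 of 7 and 5 of 12 in these settings, against 7 of 12 as reported. Striated ones were 7 of 14 and 9 of 21, against 9 of 21, and non-muscle ones 4 of 16 and 4 of 20, against 5 of 20. The striated median was 0.26 with both signals above their array medians and 1.38 with the filter at the 75th percentile. A pseudocount of 1 moved 7 members and one of 64 moved 12 by more than the probe-set SD of 0.38 over all genes. Examples were Nebl (7.57 and 2.77, against 4.54 as reported) and Myl4 (4.40 and 2.96, against 3.87). The count of lower members was 1 with averaged probe sets and 1 without the multi-transcript probe sets. It rose to 3 after quantile normalization and to 3 with each array scaled to the same median, each time with 1 striated member. The non-muscle median was 0.10 when each array was scaled to the same median. That scaling moved the median of all genes by -0.18 and turned the sign of Cnn3, Myl3, Myl6 and Tpm3. Of all genes past 2-fold, 73.4% were higher as deposited, 56.8% after that scaling and 64.7% after quantile normalization, which turned only Myl3. No paired analysis was possible because each condition has 1 array. Dim signals and the absence of detection calls limit the 13 members that passed only through the dox array.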
